A study of Mus musculus with 4 samples.

Results

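Regulatory T cells (Treg cells) of a mouse lymph node were divided by 2 transcripts, Ccr8 and Gzmb, and the rest of the transcriptome was compared between the sides. Ccr8 is a chemokine receptor of tissue and tumor Treg cells, and Gzmb encodes the granule protease granzyme B. A cell that the authors labelled Treg in the lymph node library was called effector-like when it held at least 1 UMI (unique molecular identifier, 1 counted RNA molecule) of either gene. Of 321 such cells, 139 were effector-like and 182 held no UMI of either gene, called other Treg cells. They came from a library of 4988 cells, in a series of 10558 cells.

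The series holds an RNA library and a receptor library each of sorted T cells from B16F10 melanoma and from lymph node. Both sides here came from the single lymph node RNA library, whose title calls its cells endogenous, so they share animals, treatment and handling, and no comparison has replicates. The labels give mice with subcutaneous B16F10 melanoma that received cyclophosphamide at 250 mg/kg and then TRP1 CD4+ T cells, with resection on day 11 after the transfer. How many mice were used, and whether they were pooled, the sources used here do not give. The labels conflict in several places. The source and cell type fields of the lymph node library name tumor, its treatment field says untreated, and its strain field reads RAG1- BW TRP-1 TCR.

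Treg cells restrain other T cells and are defined by the transcription factor Foxp3. In lymph nodes most are resting, circulating cells that express homing receptors such as Ccr7 and the transcription factor Klf2. After antigen encounter a fraction becomes effector Treg cells, which lose homing genes, gain costimulatory and inhibitory receptors and can enter tissues. Ccr8 and Gzmb are both known from effector Treg cells in tumors.

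Ccr8 (chr9:120092133-120094906, GRCm38.p6) was seen in 122 of the 321 cells (38.0%) and Gzmb (chr14:56258836-56262334) in 44 (13.7%). Both were seen in 27 cells, Ccr8 alone in 95 and Gzmb alone in 17. The effector-like share was therefore 43.3% (95% Clopper-Pearson interval 37.8% to 48.9%, counting error only). In 39 effector-like cells the genes together gave 1 UMI, and 100 cells held 2 or more. The highest cell held 17 UMIs of Ccr8 and another 65 of Gzmb. For comparison, either gene was seen in 2.67% of 1873 lymph node cells labelled Cd4 and in 4.16% of 2788 labelled Cd8. Single cells there held up to 7 and 10 UMIs of the genes together. How much of this was free RNA and how much the cells' own was not tested. Median depths were 5225 UMIs per cell in Treg cells, 4763 in Cd4 cells and 6306 in Cd8 cells.

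The bases before the start of both rule genes are given as context for the split, together with Tnfrsf9, the 1 gene with an AP-1 match among the 11 higher and 9 lower genes of the naming rule that had a promoter window. AP-1 is a transcription factor of T cell activation, searched as TGANTCA, which reads the same on both strands. Sequences are RefSeq, build GRCm38.p6, 5′ to 3′ on the gene's strand, and end at the base before the annotated start. Capitals mark the AP-1 match.
Ccr8, chr9:120091883-120092132, plus strand: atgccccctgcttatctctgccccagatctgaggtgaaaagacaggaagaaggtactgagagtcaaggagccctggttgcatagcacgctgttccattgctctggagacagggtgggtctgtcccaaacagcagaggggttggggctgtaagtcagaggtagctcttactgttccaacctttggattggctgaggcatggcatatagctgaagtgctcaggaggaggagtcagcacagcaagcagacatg
Gzmb, chr14:56262335-56262584, minus strand: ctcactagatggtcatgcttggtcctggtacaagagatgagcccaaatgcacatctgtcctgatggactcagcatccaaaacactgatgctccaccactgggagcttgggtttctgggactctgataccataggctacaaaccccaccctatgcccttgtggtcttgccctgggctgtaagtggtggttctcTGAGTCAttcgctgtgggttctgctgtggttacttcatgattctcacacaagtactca
Tnfrsf9, second annotated start, chr4:150927749-150927998, plus strand: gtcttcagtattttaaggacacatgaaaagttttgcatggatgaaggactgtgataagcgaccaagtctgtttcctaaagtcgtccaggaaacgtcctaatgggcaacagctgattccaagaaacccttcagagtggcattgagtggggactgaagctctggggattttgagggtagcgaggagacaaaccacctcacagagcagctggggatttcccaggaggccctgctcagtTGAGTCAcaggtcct
The match began 58 bases before the start of Gzmb and 15 bases before this start of Tnfrsf9. In windows of 250 bases before to 50 after a start, 1 of 11 higher named genes with a window (9.09%) and 0 of 9 lower ones held an AP-1 match. The share was 8.97% over all 27025 genes with a RefSeq window. The Tnfrsf9 window also held an NF-kB match (both strands searched), against 5.14% of all genes. These are letter matches and nothing more.

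Treg marker genes were seen in most cells of both sides, but not all were more frequent in effector-like cells. Foxp3 was seen in 114 of 139 effector-like cells (82.0%, 74.6% to 88.0%) and in 123 of 182 other cells (67.6%, 60.3% to 74.3%). The transcription factor Ikzf2 (Helios) was seen in 93.5% and 78.0%, and the inhibitory receptor Ctla4 in 94.2% and 81.3%. No Foxp3 UMI was seen in the 50 lymph node Cd4-labelled cells that held a rule gene, which allows a share of cells with a UMI of up to 7.11% and sets no limit on cells that express it. Cd8a was seen in 15.8% of effector-like and 18.1% of other Treg cells, against 1.32% of Cd4-labelled cells without a rule gene. Effector-like cells made up 40.5% of the 84 Treg cells with a Cd8a or Cd8b1 UMI and 44.3% of the 237 without. Foxp3 was seen in 72.6% of the Treg cells with and in 74.3% of those without these coreceptor transcripts.

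Needing a UMI to enter a side can favour deeper cells, but the cause of the depth difference was not tested. Effector-like cells had a median of 5690 UMIs (1804 to 13589) and 2003 genes, and other cells 5104.5 UMIs (770 to 13896) and 1698.5 genes. The summed counts were 888877 and 1014996 UMIs. The median share of UMIs from ribosomal protein genes was 27.1% in effector-like and 33.4% in other cells, and mitochondrial genes 2.56% and 2.70%. No barcode of a lymph node Treg cell was found in the tumor library, although the libraries share 36 barcodes. All values below are CPM (the summed UMIs of a gene scaled to a total of 1000000), log2 ratios are of CPM + 10, effector-like over other, and intervals are exact 95% Poisson intervals of counting error only. With 1 library there is no test between animals, so a 2-fold threshold describes size and not significance.

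Across 2803 genes with at least 50 CPM on either side and 20 UMIs in all, 39 stood 2-fold or more above other cells in effector-like cells (1.39%) and 10 stood 2-fold or more below (0.357%). Few genes were past the threshold. Above 0 lay 66.3% of the genes and below 0 33.7%, because the median gene stood at a log2 ratio of 0.12 (quartiles -0.08 and 0.32). Scaling by edgeR's trimmed mean (TMM) moved all ratios by -0.13 and gave 26 higher and 12 lower genes, so that 68.4% of the genes past 2-fold were higher, against 79.6% with library totals. Leaving receptor, mitochondrial and ribosomal genes out of the totals made that share 70.0%.

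**Figure D1:**
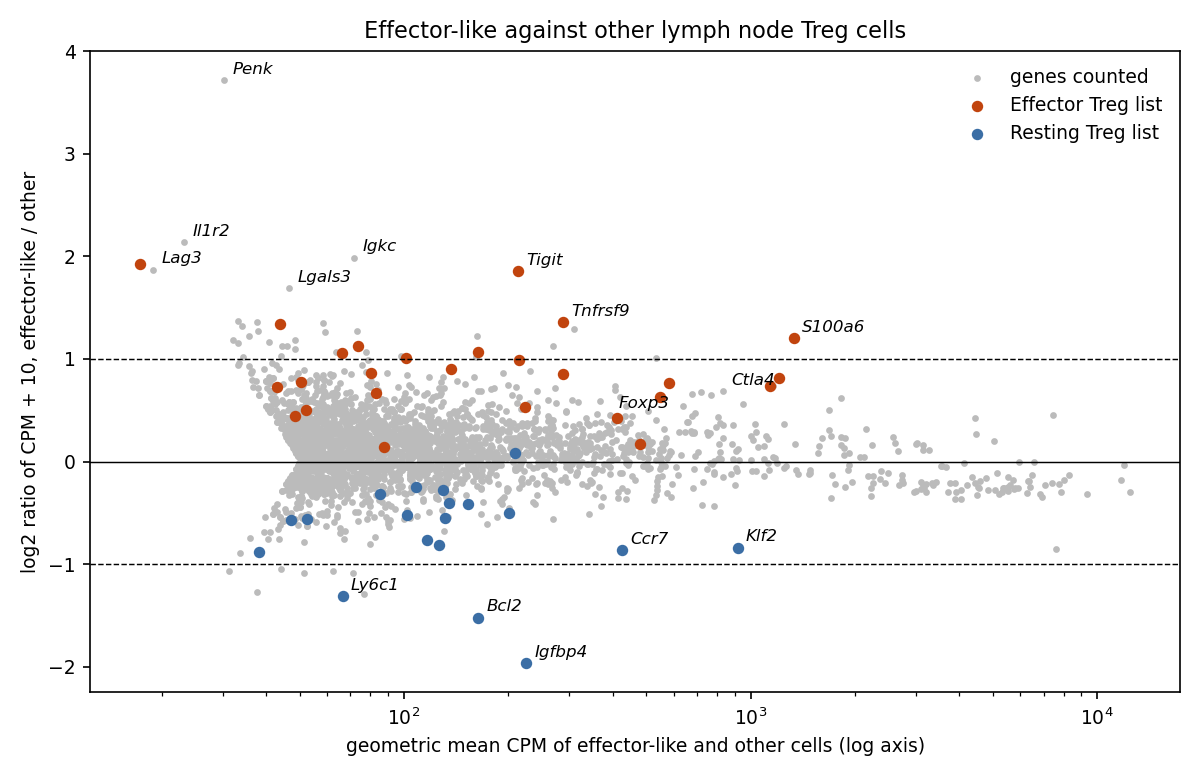
Each point is 1 of the 2803 genes counted, with its level (geometric mean CPM, log axis) against its log2 ratio of CPM + 10, effector-like over other; dashed lines mark 2-fold. The counted Effector Treg list members all lie above 0 and 18 of 19 Resting Treg list members below, while most genes stay near the median of 0.12.

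Among the lists with 5 or more counted members, inhibitory receptors had the highest median, except with Foxp3 cells only, where theirs was 0.67 and that of the effector list 0.81. Tigit (chr16:43626137-43665125), an inhibitory receptor for ligands on antigen-presenting cells, was at 419 CPM in effector-like cells (377 to 463) and at 108 CPM in other cells (89.1 to 131). It was seen in 99 of 139 effector-like cells and in 41 of 182 other cells. Lag3 (chr6:124904359-124912434), which binds MHC class II, was at 51.8 CPM (26 cells) and 6.90 CPM (5 cells). Pdcd1 (chr1:94038305-94052553), which encodes PD-1, was at 99.0 CPM (41 cells) and 35.5 CPM (24 cells). For all 3 receptors the intervals of the sides did not overlap, but all 3 were named for high ratios in these same counts.

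The list of inhibitory receptors had 6 counted members, all above 0, beside 66.3% of all genes counted, with a median of 1.09. These 3 were at least 2-fold higher, beside 1.39% of all genes counted. Ctla4, the receptor by which Treg cells strip costimulatory ligands, was at 1061 CPM in effector-like and 656 CPM in other cells. Vsir (VISTA) differed least, at 125 and 107 CPM, and its interval included equality. Havcr2 (TIM-3) was too low to be counted, with 19 UMIs in 14 effector-like cells and 2 UMIs in 2 other cells.

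Among TNF receptors, Tnfrsf9 (4-1BB, a costimulatory receptor of activated cells, chr4:150920155-150946104) was at 467 CPM in effector-like cells (423 to 514) and 176 CPM in other cells (151 to 204). It was seen in 69.8% and 36.3% of the cells. Tnfrsf1b (TNFR2, a receptor that promotes Treg expansion) was at 235 and 111 CPM. Tnfrsf4 (OX40) was more abundant and differed less, at 1606.5 CPM against 912 CPM, and Tnfrsf18 (GITR) was at 683 and 438 CPM. Of 7 counted members of this family 6 were above 0, beside 66.3% of all genes counted, with a median of 0.63. At least 2-fold higher were 2, beside 1.39% of all genes counted. Under TMM and at 2000 UMIs per cell 1 was past 2-fold, and Tnfrsf1b stood at a log2 ratio of 0.55 at that depth. Tnfrsf25 (DR3) was the exception, at 63.0 and 71.9 CPM, with an interval that included equality.

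Il1r2 (chr1:40084692-40125230), a decoy receptor which binds interleukin 1 without signalling, was at 68.6 CPM in effector-like cells (52.5 to 88.2) and 7.88 CPM in other cells (3.40 to 15.5), an 8.71-fold difference. Its log2 ratio was 2.14 at full depth and 1.51 at 2000 UMIs per cell, where Lag3 (2.16), Tigit (1.94) and Igkc (1.92) stood above it. At that depth Lag3 was seen in 11 effector-like cells and 1 other cell. Il1r2 was seen there in 10 and 3 cells and was below the level for counting. At full depth its UMIs came from 26 effector-like cells and 6 other cells, and lymph node Cd4-labelled cells held none. None of the other 14 counted cytokine receptors was past 2-fold. Il2ra, the interleukin 2 receptor chain of Treg cells, was at 322 CPM in effector-like and 367 CPM in other cells, and Il7r at 216 and 203 CPM. The intervals of both ratios included equality.

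Suppressor molecules differed unevenly. The cytokine gene Il10 was at 50.6 CPM in effector-like cells and 5.91 CPM in other cells, but 31.1% of its effector-like UMIs came from 1 cell. It was seen in 16 cells against 2 and, like Lag3, which the list also holds, was past 2-fold. Tgfb1, the gene of the suppressive cytokine TGF-beta, was at 390 and 257 CPM, and Nt5e (CD73, which makes adenosine) at 87.8 and 56.2 CPM. Lrrc32 (GARP, which holds latent TGF-beta at the surface) was at 109 and 124 CPM, with an interval that included equality. The growth factor gene Areg was at 480 and 355 CPM, but at 2000 UMIs per cell its log2 ratio was 0.03, against 0.43 at full depth. Of 8 counted members 7 were above 0, beside 66.3% of all genes counted. At least 2-fold higher were 2, beside 1.39% of all genes counted, against 0 of 6 under TMM, where neither met the level for counting. Penk, the gene of the opioid precursor proenkephalin, fell outside the naming rule and was picked after its values were seen. It had 166 UMIs in effector-like cells and 5 in other cells, and 30.1% of the effector-like UMIs were in 1 cell.

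Trafficking receptors lay on both sides of 0. Ccr2 (chr9:124101918-124109140), a receptor for inflammatory chemokines, was at 77.6 and 24.6 CPM, seen in 24 and 15 cells. Itgae (CD103, which binds epithelial cadherin) was at 242 and 110 CPM. Cxcr3, a receptor for interferon-induced chemokines, was at 69.8 and 36.5 CPM, and Ccr4 at 58.5 and 31.5 CPM. Cxcr6 was below the level for counting, with 24 UMIs in effector-like cells and 2 UMIs in other cells. Over 13 counted trafficking receptors the median was 0.09 and under TMM it was -0.05.

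Ccr7 (chr11:99144199-99155077), which brings T cells into lymph nodes, was at 313 CPM in effector-like cells (277 to 352) and 578 CPM in other cells (532 to 627). It was seen in 34.5% and 62.6% of the cells. S1pr1, the receptor for exit from the node, was at 116 and 157 CPM. Klf2 (chr8:72319062-72321654), the factor that drives S1pr1, was at 683 and 1230.5 CPM. None of these 3 reached 2-fold, yet the intervals of all 3 log2 ratios lay below 0. Ccr7 and Klf2 were named for low ratios in these same counts.

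**Figure D2:**
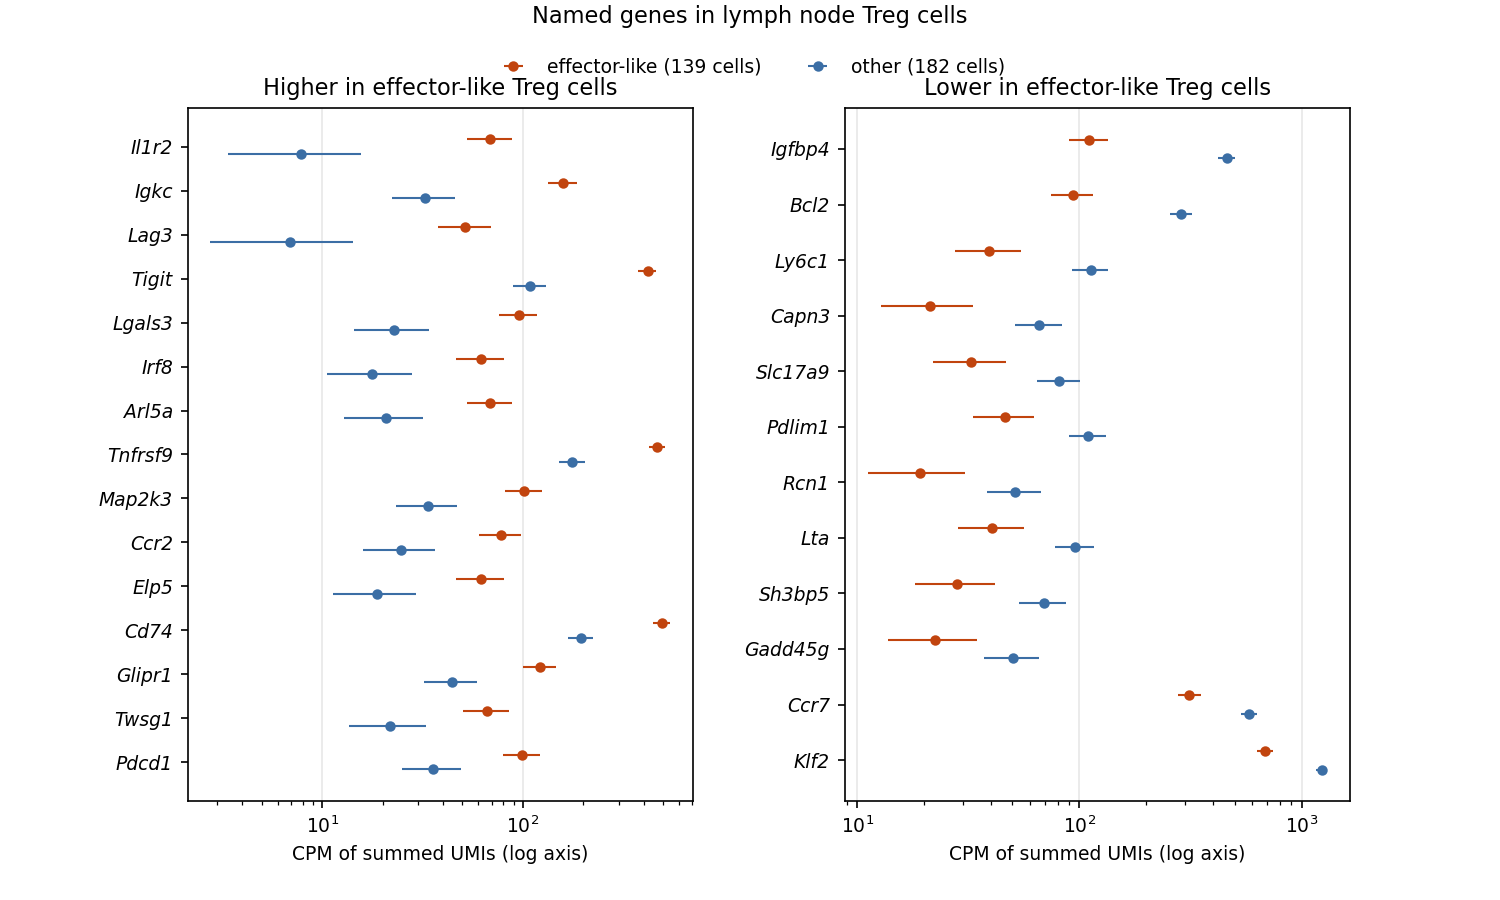
CPM of summed UMIs (log axis) of the 15 higher and 12 lower named genes in 139 effector-like and 182 other lymph node Treg cells, with exact 95% Poisson intervals. The intervals of the sides lie apart in each of the 15 and 12 genes, and are closest for Gadd45g. The genes were picked by their ratios in these same counts, so this separation is not independent evidence.

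The lower side was led by resting genes. Igfbp4 (chr11:99040005-99052655), a secreted growth factor binding protein abundant in naive T cells, was at 110 CPM in effector-like cells (89.5 to 134) and 460 CPM in other cells (419 to 504), 4.17-fold higher in other cells. It was seen in 22 and 58 cells. Bcl2 (chr1:106538176-106714290), which protects resting lymphocytes from death, was at 93.4 CPM and 287 CPM, in 42 and 99 cells. Ly6c1 was at 39.4 and 112 CPM. Its near-identical neighbour Ly6c2 was at 46.1 and 127 CPM, and reads could be split between the pair.

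The Resting Treg list had 19 counted members, of which 18 were below 0, beside 33.7% of all genes counted, with a median of -0.56. At least 2-fold lower were 3 (Igfbp4, Bcl2, Ly6c1), beside 0.357% of all genes counted. Foxp1, a factor of quiescence, was at 107 and 162 CPM, Lef1 at 132 and 178 CPM, and Tcf7 at 117 and 144 CPM. The interval of Tcf7 included equality. Bach2, which restrains effector differentiation, was below the counting level with 8 and 31 UMIs. Il7r was the only counted member above 0, and under TMM all 19 were below. Of 9 counted quiescence transcription factors 8 were below 0, beside 33.7% of all genes counted, with none past 2-fold.

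Other named lower genes had modest levels. The calcium-dependent protease gene Capn3 was at 21.4 and 66.0 CPM, the vesicular nucleotide transporter Slc17a9 at 32.6 and 80.8 CPM, and the cytoskeletal adaptor Pdlim1 at 46.1 and 109 CPM. Lta, the gene of lymphotoxin alpha, was at 40.5 and 95.6 CPM. The calcium-binding Rcn1 was at 19.1 and 51.2 CPM and Sh3bp5 at 28.1 and 69.0 CPM. Gadd45g, a stress-response gene, stood at 22.5 and 50.2 CPM and missed 2-fold on the scale used.

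Survival genes differed in direction. Bcl2 was lower, whereas its relative Bcl2l1 (BCL-XL) was at 54.0 CPM in effector-like and 21.7 CPM in other cells. Bcl2a1b was at 109 and 59.1 CPM, and Mcl1 at 127 and 156 CPM with an interval that included equality. The caspase gene Casp4 was at 76.5 and 30.5 CPM. Of 10 counted members 7 were above 0, beside 66.3% of all genes counted, with 2 past 2-fold upward (0 under TMM) and 1 downward.

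Treg identity genes differed less than effector genes. Of 13 counted members none reached 2-fold and 8 were above 0, beside 66.3% of all genes counted, with a median of 0.18. Under TMM 14 were counted, 1 was at least 2-fold lower and the median was 0.01, and at 2000 UMIs per cell 1 of 15 was past 2-fold in each direction. Foxp3 was at 462 CPM in effector-like and 334 CPM in other cells, Ikzf2 at 851 and 537 CPM, and Izumo1r (folate receptor 4) at 608 and 570 CPM. Gpr83, a receptor of resting Treg cells in mouse, was below the counting level with 9 UMIs against 49.

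The effector list, with Ccr8 and Gzmb left out, had 26 counted members of 32. All 26 were above 0, beside 66.3% of all genes counted, and the median was 0.83. At least 2-fold higher were 9, beside 1.39% of all genes counted. Under TMM 5 of 25 were past 2-fold and none was below 0. Without cells that held 2 or more genes of other cell types 4 of 23 were past 2-fold and 1 was below 0, and at 2000 UMIs per cell 15 of 28 were past 2-fold and 2 were below 0. The list was chosen with earlier results of these data known, so its direction is not independent evidence. Besides genes given above, the hyaluronan receptor Cd44 was at 101 and 43.3 CPM and the costimulatory receptor Icos at 763 and 444 CPM. The weakest members were Irf4, at 92.3 and 82.8 CPM, and Il2rb, at 510 and 450 CPM, both with intervals that included equality.

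Of effector transcription factors, Maf, which drives Il10, was at 149 and 69.0 CPM and alone of 17 counted members reached 2-fold, which it missed under TMM. Rora was at 113 and 57.1 CPM, Bhlhe40 at 141 and 73.9 CPM, Gata3 at 108 and 64.0 CPM, and Batf at 271 and 184 CPM. Prdm1 (Blimp-1), the factor of effector Treg cells, stayed under the counting level with 39 and 17 UMIs. Irf8, an interferon regulatory factor best known from myeloid cells (chr8:120736358-120756694), was at 61.9 CPM in 26 effector-like cells and 17.7 CPM in 14 other cells.

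S100, annexin and galectin genes, which encode calcium-binding and membrane proteins of activated cells, were higher as a group. All 15 counted members were above 0 (14 under TMM), beside 66.3% of all genes counted, and the median was 0.60. At least 2-fold higher were 4 (3 under TMM, 2 at 2000 UMIs per cell), beside 1.39% of all genes counted. S100a6 was at 2026 and 876 CPM and S100a11 at 762 and 372 CPM. Lgals3 (galectin-3, chr14:47373860-47386167) was at 95.6 and 22.7 CPM, seen in 32 and 14 cells. In the cytotoxic granule list Nkg7 was at 255 and 103 CPM, while perforin (Prf1) had 6 and 5 UMIs, Gzma 3 and 2, and Ctsw stood at 138 CPM on both sides.

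The remaining named higher genes have other roles. Map2k3, a kinase of the p38 pathway, was at 101 and 33.5 CPM, in 40.3% and 16.5% of cells. Twsg1, a modulator of BMP signalling, was at 66.4 and 21.7 CPM. Glipr1 was at 122 and 44.3 CPM, the small GTPase gene Arl5a at 68.6 and 20.7 CPM, and the Elongator subunit gene Elp5 at 61.9 and 18.7 CPM.

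Cd74 and Igkc are best known from B cells, where Cd74 is the invariant chain of MHC class II and Igkc the constant region of the kappa light chain. Cd74 was at 493 and 195 CPM, in 71.2% and 41.2% of cells. Igkc (chr6:70726435-70726754) was at 159 CPM in effector-like cells (134 to 187) and 32.5 CPM in other cells (22.4 to 45.7), in 35 and 12 cells. It was seen in 2 of 1873 Cd4-labelled and 4 of 2788 Cd8-labelled lymph node cells, at 0.22 CPM in both. Of the 35 effector-like Igkc cells, 33 also held Ighm, the mu heavy chain gene.

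Ighm itself was widespread, at 523 and 335 CPM in effector-like and other Treg cells, and was seen in 60.2% of Cd4-labelled and 64.4% of Cd8-labelled cells. The 10 B cell genes summed to 712 CPM in effector-like and 405 CPM in other cells, with Pax5, a factor that defines B cells, at 0 on both sides. Without cells that held 2 or more genes of the B cell, macrophage, dendritic or melanoma lists, which left 91 and 150 cells, the log2 ratio of Igkc was 1.27 and that of Cd74 0.99. Igkc is itself on the B cell list, so this filter lowers its ratio by construction. The sums of the other lists were low. Macrophage genes gave 7.88 and 6.90 CPM, dendritic cell genes 14.6 and 2.96, neutrophil genes 1.13 and 3.94, melanoma genes 2.25 and 3.94, natural killer genes 29.3 and 5.91, and gamma delta T cell genes 2.25 and 19.7 CPM. CD8 T cell genes summed to 696 CPM in effector-like and 499.5 CPM in other cells, with Cd8a at 85.5 and 122 CPM. The part of other cell types in these results was not tested.

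**Figure D3:**
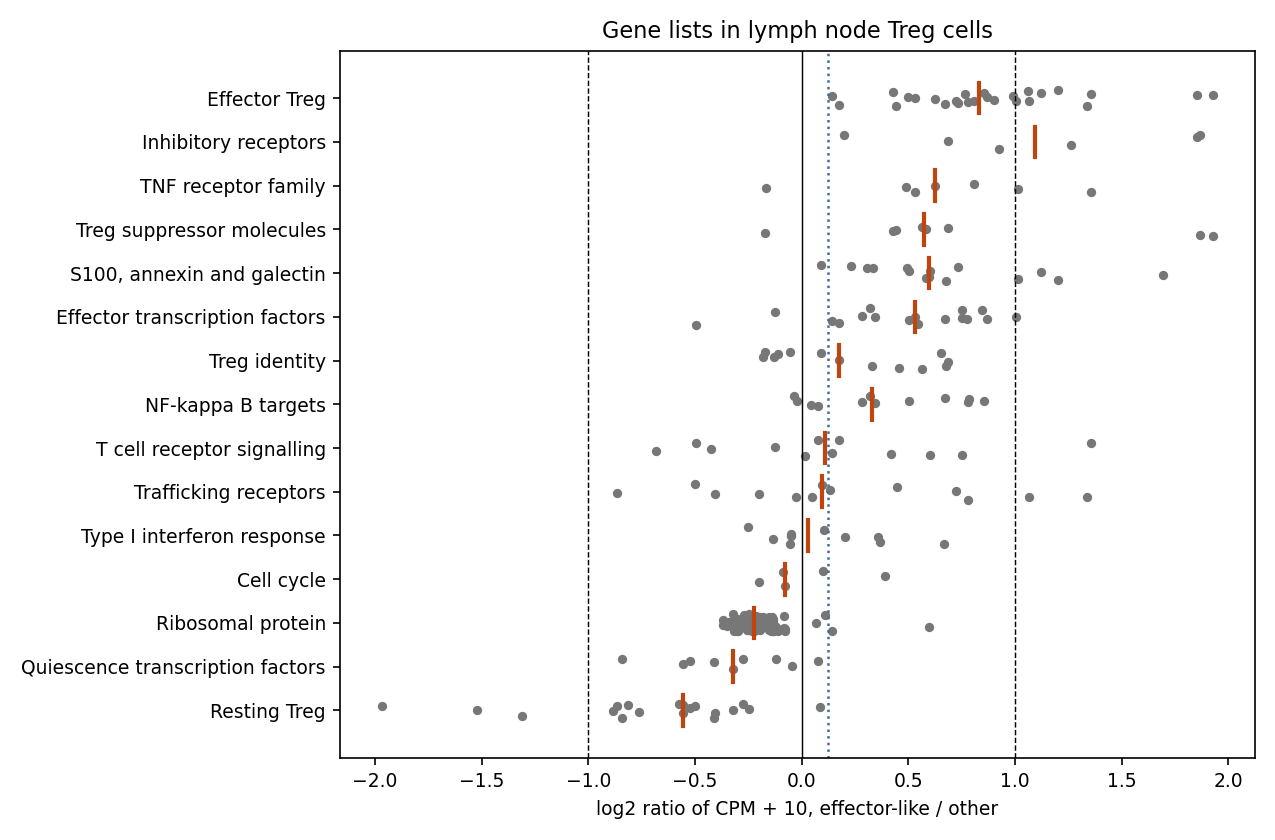
Points are counted members of each gene list at their log2 ratio of CPM + 10, effector-like over other; the bar is the list's median, the dotted line the median of all 2803 genes (0.12) and dashed lines 2-fold. Effector Treg and inhibitory receptor genes lie to the right, with medians of 0.83 and 1.09, and Resting Treg genes to the left at -0.56.

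Several lists had no or few members past 2-fold. Of 12 counted NF-kB targets 10 were above 0 (8 under TMM), beside 66.3% of all genes counted. None of these targets was past 2-fold, and their median was 0.33. Medians near 0 changed sign with scaling. Type I interferon response genes had a median of 0.03 (-0.15 under TMM), dissociation stress genes 0.01 (-0.11) and antigen presentation genes 0.11 (-0.01), with Cd74 the only member past 2-fold. The short lists of Th1, Th2 and tissue, and follicular genes had 3, 5 and 4 counted members, of which Il10 and Pdcd1 were past 2-fold. Of 83 ribosomal protein genes 79 were below 0, with a median of -0.22, and of 12 mitochondrial genes 10 were, with a median of -0.07. Of all genes counted 33.7% were below 0. Cell cycle genes had 5 counted members with a median of -0.08, or 0.05 as the mean of each cell's CPM. Cells with 3 or more genes of a narrower cell cycle list made up 12.2% of effector-like cells (7.29% to 18.9%) and 9.89% of other cells (5.97% to 15.2%).

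The split did not separate the cells cleanly. At 2000 UMIs per cell, which 136 effector-like and 173 other cells reached, the effector list gave a median of 21 UMIs in effector-like cells (quartiles 12.75 and 31.25) and 9 in other cells (5 and 16). Of the other cells, 32 (18.5%) held at least the effector-like median. The resting list gave medians of 4 and 8 UMIs. At this depth Tigit was seen in 44.1% of effector-like and 15.6% of other cells, Tnfrsf9 in 50.7% and 15.6%, and Ccr7 in 34 and 78 cells.

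In cells with a single UMI of the rule genes the effector list median was 13 UMIs, against 24 in cells with 2 or more and 9 in cells with 0. Tnfrsf9 was at 173 CPM in cells with 1 UMI and 577 CPM in cells with 2 or more, against 176 CPM in other cells. At 1 UMI its level was thus that of other cells. Tnfrsf4 gave a like picture, at 778, 1918 and 912 CPM. Il1r2 differed, at 90.6 CPM with 1 UMI, 60.4 CPM with 2 or more and 7.88 CPM in other cells, but 59.1% of its UMIs in the first of these came from 1 cell. Tigit also differed, at 243 CPM with 1 UMI (185 to 313), 484 CPM with 2 or more and 108 CPM in other cells (89.1 to 131). S100a6 was at 1746, 2131 and 876 CPM, whereas Pdcd1 was at 37.1, 122 and 35.5 CPM. Cells with 1 UMI thus matched other cells in some of these genes and not in others. Igfbp4 was at 161, 91.3 and 460 CPM. With only the 100 cells of 2 or more UMIs kept on the effector-like side, 65 genes were at least 2-fold higher and 16 lower.

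**Figure D4:**
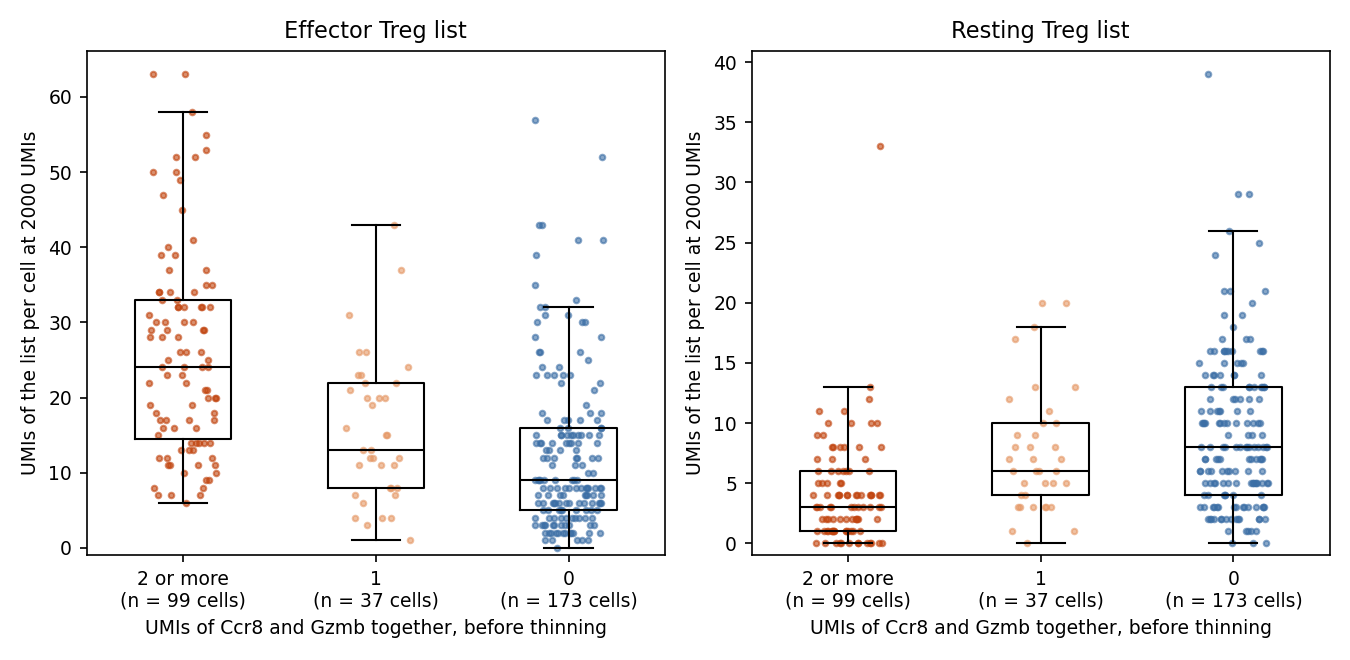
UMIs of the Effector Treg list (left) and the Resting Treg list (right) per cell after thinning each cell to 2000 UMIs, by the number of Ccr8 and Gzmb UMIs before thinning; points are cells and boxes give quartiles and median. Effector list medians are 24, 13 and 9 UMIs with 2 or more, 1 and 0 UMIs, and the distributions overlap widely.

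The 2 genes of the rule marked cells that differed from each other. In the 17 Gzmb-only cells, Ccr2 was at 381 CPM (271 to 521, 11 cells with a UMI), against 109 CPM in cells with both genes and 15.2 CPM in the 95 Ccr8-only cells (6.92 to 28.8). Other Treg cells had 24.6 CPM. With the 122 Ccr8 cells alone its log2 ratio was 0.48. The integrin gene Itgae followed the same order in part, at 430 CPM in Gzmb-only cells, 420 CPM in cells with both and 152 CPM in Ccr8-only cells. S100a6 was at 3589, 2418 and 1630 CPM, and Klrg1, a receptor of terminally differentiated cells, at 157, 83.0 and 42.1 CPM. Of the Klrg1 UMIs in Gzmb-only cells 43.75% came from 1 cell, and other Treg cells had 42.4 CPM. The Klrg1 intervals of Gzmb-only cells (89.4 to 254) and of cells with both genes (47.4 to 135) overlapped. The chemokine gene Ccl5 was at 489, 275 and 50.5 CPM, but 3 Gzmb-only cells held all of its UMIs there.

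Ccr8-only cells were highest in other genes. Il1r2 was at 94.3 CPM in Ccr8-only cells (71.2 to 122), 25.9 CPM in cells with both and 0 UMIs in Gzmb-only cells, whose interval reaches 36.1 CPM. In Ccr8-only cells 23.2% of its UMIs came from 1 cell. Pdcd1 was at 130 CPM in Ccr8-only cells, 41.5 CPM in cells with both and 29.3 CPM in Gzmb-only cells, the last from 1 cell. Cd83, an activation marker, was at 488, 187 and 215 CPM, and Bhlhe40 at 173, 104 and 19.6 CPM. Other Treg cells had 212 CPM of Cd83, and 40.9% of its UMIs in Gzmb-only cells came from 1 cell. Tnfrsf9 was at 475 CPM in Ccr8-only cells, 586 CPM in cells with both and 196 CPM in Gzmb-only cells, the last close to the 176 CPM of other Treg cells. Tigit was high in all, at 367, 555 and 460 CPM. Gzmb-only cells hold 102250 UMIs in all, so their levels are the least precise.

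**Figure D5:**
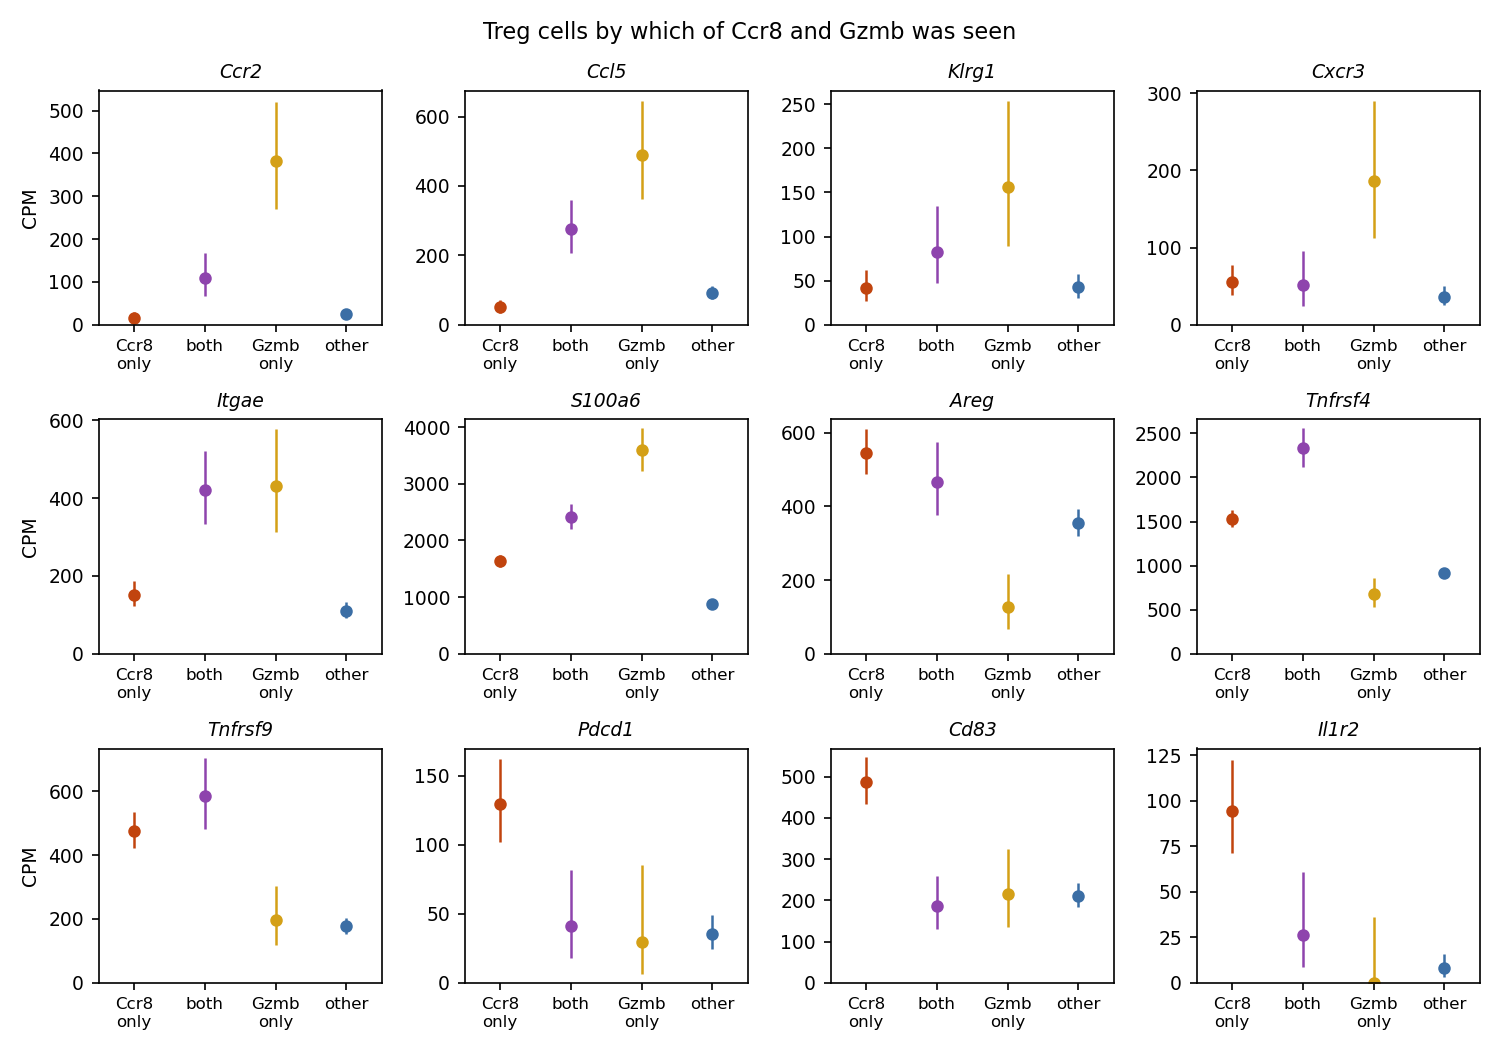
CPM of summed UMIs (linear axes from 0) of 12 genes in 95 Ccr8-only cells, 27 cells with both genes, 17 Gzmb-only cells and 182 other Treg cells, with exact 95% Poisson intervals. Ccr2, Ccl5, Klrg1, Cxcr3 and S100a6 are highest in Gzmb-only cells, and Pdcd1, Cd83 and Il1r2 in Ccr8-only cells. For Klrg1 the intervals of Gzmb-only cells and of cells with both genes overlap.

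Effector-like cells were not a few expanded clones. A receptor was called in 133 of the 139 cells and these held 132 distinct receptors, with 1 receptor in 2 cells. In other Treg cells 168 cells held 168 receptors. One receptor was found on both sides, and no effector-like receptor was found in a lymph node cell of another label.

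The tumor library held 19 cells labelled Treg, of which 17 (89.5%, 66.9% to 98.7%) held Ccr8 or Gzmb. Set beside the lymph node, Tigit was at 2128 CPM in the tumor Treg cells, 419 CPM in effector-like and 108 CPM in other lymph node cells. Lag3 was at 1115, 51.8 and 6.90 CPM, and Tnfrsf9 at 1757, 467 and 176 CPM. Pdcd1 was at 33.8 CPM in tumor Treg cells, against 99.0 CPM in effector-like cells, but the tumor value rests on 3 UMIs. That is too few to place it above or below the lymph node cells. Tumor and lymph node differ by library as well as tissue, which cannot be told apart, and some genes are listed at 0 throughout the tumor library.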

How the data were processed

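Gene counts are raw UMI counts as the authors deposited them. The library, cell label and receptor of each cell are other values, taken from the annotation the authors deposited. Cell Ranger 3.1.0 and mm10 are named per the submitters' processing notes. The sources used here do not give the rules for filtering and labelling cells.

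UMIs were summed over the cells of each side and expressed as CPM. Genes were counted with at least 50 CPM on either side and 20 UMIs in all, leaving out receptor segments, Ccr8 and Gzmb. Named genes are the 15 highest and 12 lowest ratios with at least 50 CPM on the higher side, a UMI in 10% of its cells and no cell with over 25% of its UMIs, without predicted, mitochondrial, ribosomal and sex-linked genes. The members and lists were chosen with earlier results of these data known. A check at equal depth thinned each cell to 2000 UMIs. A doublet caller marked 1 of 4988 cells, and why it marked so few was not tested. Doublets were therefore not assessed, and no cell was removed. In all 18 other settings were tried, 1 of them chosen after seeing the data. The code was tested on simulated data. Python 3.11.15, NumPy 2.4.6, SciPy 1.17.1, pandas 2.3.3, scanpy 1.11.5, R 4.3.3 and edgeR 4.0.16 (for TMM) were used. Results for some genes are not reported here.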

Additional observations from a re-analysis of the deposited data

How the results depend on the processing

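No paired analysis was possible because both sides come from 1 library and no test was made. Genes at least 2-fold higher and lower numbered 39 and 10. They numbered 101 and 33 when cells were thinned to 2000 UMIs, of which 29 and 9 were among the 39 and 10, and 134 and 51 when sides were also called on the thinned counts. They were 78 and 18 at a minimum of 20 CPM, 18 and 5 at 100 CPM, 103 and 31 with Gzmb cells alone, and 65 and 16 with 2 or more UMIs. Lower genes were 21 with totals that left out receptor, mitochondrial and ribosomal genes. Leaving out cells with 3 or more cell cycle genes gave 107 and 100, from 26 and 61 cells, and turned the log2 ratio of Itgae to -0.017. A narrower cell cycle list, chosen after seeing the data, gave 41 and 12. The 15 higher and 12 lower named genes kept their direction in each of these settings, at the least 0.06 for Pdcd1 with Gzmb cells and -0.02 for Gadd45g with sides called on thinned counts. Of the 15 higher genes 13 were past 2-fold when thinned and 12 without cells with 2 or more genes of other cell types. Of the 12 lower genes 9 were past 2-fold, 8 when thinned, 7 with Foxp3 cells only or without those cells, and 6 with depth weighting. The cause of these shifts was not tested. Gzmb-only cells, with 102250 UMIs, limit what depth can show.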

Other observations

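Early genes of T cell receptor signalling did not share a direction. Egr1, an immediate early transcription factor, was at 101 CPM in effector-like and 168 CPM in other Treg cells, Cd69 at 626 and 843 CPM, and Myc at 97.9 and 142 CPM. Nr4a2, an orphan nuclear receptor of the same response, was at 198 and 113 CPM, and Nr4a1 at 842 and 918 CPM. Of 12 counted members 8 were above 0, beside 66.3% of all genes counted. Their median was 0.11, against 0.12 over all genes counted, or -0.01 under TMM.

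Of 10 counted glycolysis genes 8 were above 0, beside 66.3% of all genes counted, with a median of 0.33. Aldoa was at 527 CPM in effector-like and 312 CPM in other cells, Pkm at 530 and 361 CPM, and Ldha at 755 and 576 CPM. Eno1 lay the other way, at 179 and 221 CPM.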
